A study of Mus musculus with 9 samples.

Results

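A set of 8 genes of chemotactic signalling was followed in mouse retina: the chemokines Ccl2, Ccl3, Ccl4, Ccl5, Cxcl10, Cxcl12 and Cx3cl1, and the receptor Cxcr4. They were taken by gene symbol from the annotation of an Illumina bead array, and their 8 symbols matched 11 of 46613 probes, among 19405 genes with a probe. Whole retinas of C57BL/6N mice in oxygen-induced retinopathy had been measured, a model in which high oxygen stunts the growing retinal vessels and the return to room air leaves the tissue short of oxygen. In the hypoxic P12.5 group, pups had spent 5 days from postnatal day 7 in 75 ± 2% oxygen and then 12 hours in room air. The hyperoxic P12 group had the same oxygen exposure with no time in room air, and the control P12 group was normal mice of postnatal day 12. Each group had 3 arrays, and each array held RNA of both retinas of a single mouse. No normal P12.5 mouse was among the samples, so a difference between P12.5 and P12 also covers 12 hours of age and of the day.

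Chemokines are small secreted proteins that attract cells along a gradient through G protein-coupled receptors. Most are made on demand by activated immune and glial cells, while Cxcl12 and the membrane-bound Cx3cl1 are made constantly in many tissues. In the retina, the Cxcl12 receptor Cxcr4 is known from the tip cells of sprouting vessels, and Cx3cl1 is a neuronal signal read by microglia through Cx3cr1.

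The promoter stretches of 3 members are shown because they cover a gene that rose, a gene that was never detected and a gene that was detected on every array. Each is the 250 bases before the gene's start in RefSeq, build GRCm38.p6, written 5′ to 3′ along the gene, and capitals mark motif matches on either strand. The Ccl3 stretch lies at chr11:83649379-83649628 on the minus strand, that of Cxcl10 at chr5:92348890-92349139 on the minus strand, and that of Cxcr4 at chr1:128592300-128592549 on the minus strand.
Ccl3: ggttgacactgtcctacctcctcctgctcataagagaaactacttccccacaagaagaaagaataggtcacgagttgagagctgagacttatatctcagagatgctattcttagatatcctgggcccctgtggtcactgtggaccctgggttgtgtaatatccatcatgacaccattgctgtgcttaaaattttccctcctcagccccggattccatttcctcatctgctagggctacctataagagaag
Cxcl10: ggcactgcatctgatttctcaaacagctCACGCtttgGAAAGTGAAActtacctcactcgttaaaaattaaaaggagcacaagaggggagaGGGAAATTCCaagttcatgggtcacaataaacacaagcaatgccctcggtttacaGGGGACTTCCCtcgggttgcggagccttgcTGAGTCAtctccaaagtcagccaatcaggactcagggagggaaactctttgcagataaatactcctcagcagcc
Cxcr4: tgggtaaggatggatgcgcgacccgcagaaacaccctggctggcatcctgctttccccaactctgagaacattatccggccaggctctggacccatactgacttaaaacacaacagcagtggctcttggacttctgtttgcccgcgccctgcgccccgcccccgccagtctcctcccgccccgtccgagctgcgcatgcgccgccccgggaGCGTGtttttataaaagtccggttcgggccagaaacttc
The motifs searched were a loose kappa B pattern of NF-kB sites (GGG and CC with 5 bases of any kind between), the AP-1 motif TGANTCA, the hypoxia response core in its form with A (ACGTG) or with G in place of that A, and an interferon response pattern (a pair of GAAA with 2 bases of any kind between). Of 32851 RefSeq stretches of this length, 45.8% held the kappa B pattern, 6.75% the AP-1 motif, 16.6% the core with A, 28.2% the core with G and 2.98% the interferon response pattern. The table held 5 of the 8 members, the others being Ccl2, Ccl4 and Ccl5. Ccl3 and Cx3cl1 had no match in these windows. Cxcl10 had 4 matches to the kappa B pattern. Of these, 3 overlapped in a single run, in which the same bases were counted once on each strand. Cxcl10 also had 1 match each to the AP-1 motif, the core with G and the interferon response pattern. Cxcr4 had 1 match to the core with G, and Cxcl12 had 1 to the kappa B pattern. A match is only a run of letters, and Cxcl10, with the most matches, was detected on no array.

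The tissue label was checked first. The 7 tested markers of Muller glia, the radial glia of the retina, had mean levels of 9.69 to 10.11 on the normalized log2 scale over the 9 arrays, and the 4 tested markers of ganglion cells 10.09 to 10.27. Median raw intensity was 67.4 to 82.3 on 8 arrays and 163.6 on hyperoxic 1, where 30.56% of probes were detected (detection p under 0.05), against 42.08% to 44.55% elsewhere. The labels within P12 were in doubt. The deposited ratios had a median of 1 over control 1, hyperoxic 2 and hyperoxic 3 for 100% of probes, against 12.61% for the 3 arrays labelled control. The detection p-value columns beside control 1, control 2 and control 3 followed the intensities of these same arrays, control 1, hyperoxic 2 and hyperoxic 3. Each member is therefore compared with the labelled groups and with all 6 P12 arrays together, a comparison that does not use the labels within P12.

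The inflammatory chemokines Ccl4 and Ccl3 were the members that rose after 12 hours in room air. In mouse both draw in monocytes and other leukocytes, and Ccl3 signals through Ccr1 among other receptors. Their genes are direct neighbours in the GRCm38.p6 annotation. Both were detected on all 3 hypoxic P12.5 arrays and on 0 of 6 P12 arrays. On hyperoxic 1, whose background was raised, a signal at the Ccl3 level of P12.5 would not have counted as detected.

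**Figure D1:**
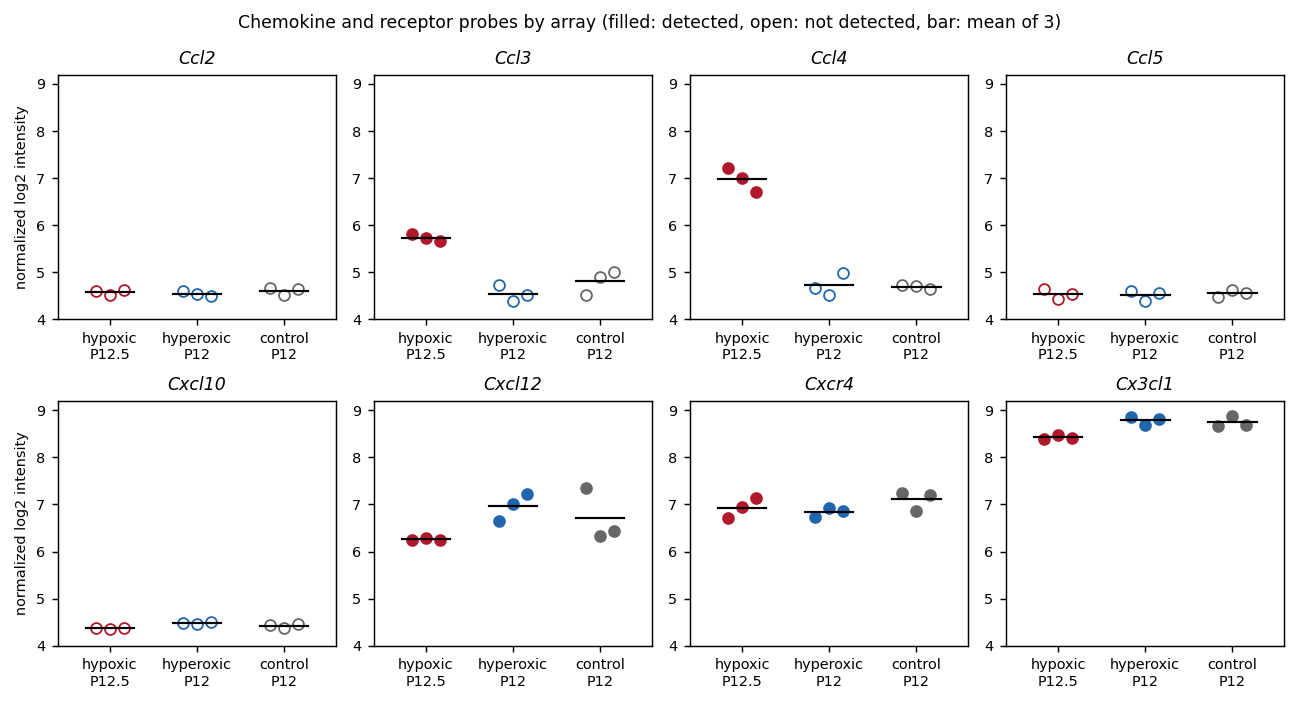
Normalized log2 intensity of the most intense probe of each member on the 9 arrays, by group, with filled points where the probe was detected, open points where it was not, and a bar at the mean of 3 arrays. Ccl3 and Ccl4 are filled only at P12.5, Ccl2, Ccl5 and Cxcl10 are open throughout, and Cxcl12, Cxcr4 and Cx3cl1 are filled throughout.

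Normalized log2 levels of Ccl4 were 7.22, 7.00 and 6.70 on hypoxic P12.5 arrays 1, 2 and 3. They were 4.67, 4.52 and 4.99 on the hyperoxic P12 arrays and 4.74, 4.70 and 4.65 on the control P12 arrays. All P12.5 arrays lay above all P12 arrays, by more than the spread within any group. Before normalization, Ccl4 intensities were 222.6, 192.4 and 175.7 at P12.5, against 151.5 on hyperoxic 1, whose background was raised, and 62.2 to 78.5 on the other P12 arrays.

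The Ccl4 log2 difference was 2.26 ± 0.13 (SE) between P12.5 and all 6 P12 arrays (limma, Benjamini-Hochberg adjusted p = 3.05e-05), with means of 6.97 ± 0.26 (SD, n = 3) and 4.71 ± 0.15 (SD, n = 6). It was 2.25 ± 0.16 against hyperoxic P12 (adjusted p = 5.26e-04) and 2.28 ± 0.16 against control P12 (adjusted p = 6.75e-04). Because Ccl4 was not above background at P12, only a lower bound on the fold is known, taken against the lowest signal detected on each P12 array. Ccl4 was at least 3.44-fold higher at P12.5 than on all P12 arrays, at least 3.14-fold higher than in hyperoxic P12 and at least 3.76-fold higher than in control P12. Hyperoxic 1 lowers the bound against all P12 arrays, which was 3.76-fold without it.

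A second Ccl4 probe was dimmer. It was detected on 1 array, hypoxic 2, and so was not tested; its levels were 4.85, 5.33 and 4.86 at P12.5, against 4.48 to 4.55 on the 6 P12 arrays. The P12.5 arrays were again above every P12 array. With no detection filter, its log2 difference from all P12 arrays was 0.50 ± 0.10 (limma, adjusted p = 0.0576), so the second probe did not pass on its own.

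Ccl3 levels were 5.81, 5.73 and 5.66 on hypoxic P12.5 arrays 1, 2 and 3. They were 4.73, 4.39 and 4.51 on the hyperoxic P12 arrays and 4.52, 4.90 and 5.00 on the control P12 arrays. The P12.5 arrays lay close together and above every P12 array, while the labelled P12 groups overlapped. Before normalization, Ccl3 intensities were 113.3, 112.5 and 109.5 at P12.5, below the 155.6 of hyperoxic 1. On the other P12 arrays they were 55.1 to 72.5.

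The Ccl3 log2 difference was 1.06 ± 0.14 between P12.5 and all P12 arrays (limma, adjusted p = 0.00446), with means of 5.73 ± 0.08 (SD, n = 3) and 4.67 ± 0.24 (SD, n = 6). It was 1.19 ± 0.15 against hyperoxic P12 (adjusted p = 0.00631) and 0.92 ± 0.15 against control P12 (adjusted p = 0.0191). As lower bounds, Ccl3 was at least 1.45-fold higher at P12.5 than on all P12 arrays, at least 1.33-fold higher than in hyperoxic P12 and at least 1.59-fold higher than in control P12. On hyperoxic 1 the lowest detected log2 signal was 5.85, above the Ccl3 levels at P12.5. Without that array the bounds against all P12 and against hyperoxic P12 were both 1.59-fold.

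The Ccl3 call was less firm than that of Ccl4. The call against control P12 was lost under 10 of 18 other ways of processing, with adjusted p up to 0.646 (limma). Among these 10 was leaving out any 1 control or hypoxic P12.5 array (adjusted p 0.0508 to 0.116). Against hyperoxic P12 the Ccl3 call was lost without hypoxic 1 (1.13, adjusted p = 0.0511) and with the deposited ratios (0.75, adjusted p = 0.107). Against all P12 arrays it was lost under 1 of 17 alternatives, the deposited ratios (limma, adjusted p = 0.129). Ccl4 passed in all 3 comparisons with P12.5 under every alternative run, but its size depended on the treatment of background. Its log2 difference from all P12 arrays was 1.13 without background correction, 1.41 with an offset of 50 and 1.39 with the deposited ratios, so the bounds above hold for the corrected values with the offset of 16 only.

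Background markers were set beside these rises. Of 17 microglia markers, 11 were tested and 0 passed in any comparison, with mean levels of 6.36 to 6.53 at P12.5, 6.12 to 6.72 in hyperoxic P12 and 6.40 to 6.47 in control P12. Among them, Itgam, P2ry12 and Ptprc were detected on no array. Of 9 monocyte and macrophage markers, 2 were tested and 0 rose, while 1 fell against hyperoxic P12. Their mean levels were 5.82 to 5.90 at P12.5, 5.99 to 6.52 in hyperoxic P12 and 6.01 to 6.40 in control P12; Lyve1 was detected on 9 arrays, Lyz2 on 8, and Mrc1 and Cd163 on none. Of 10 neutrophil markers, 1 was tested and did not pass; Camp was detected on 6 arrays and Csf3r on 4, and S100a8, S100a9, Mpo and Elane on none. The T and NK cell genes with a probe were detected on no array. Astrocyte markers (2 tested, Gfap and Pdgfra) had mean levels of 7.71 to 7.77 at P12.5, 6.81 to 7.42 in hyperoxic P12 and 7.29 to 7.58 in control P12. Of these 2, 1 rose against hyperoxic P12 and against all P12 arrays, and the listed markers Pax2 and S100b were detected on no array. Crystallin genes, which are most abundant in lens, had mean levels of 7.71 to 10.23 at P12.5, 6.48 to 9.29 in hyperoxic P12 and 5.71 to 6.76 in control P12. The part of astrocyte genes and crystallins in the Ccl3 and Ccl4 rises was not tested. In whole-tissue RNA, more cells of a type and more RNA per cell cannot be told apart.

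**Figure D2:**
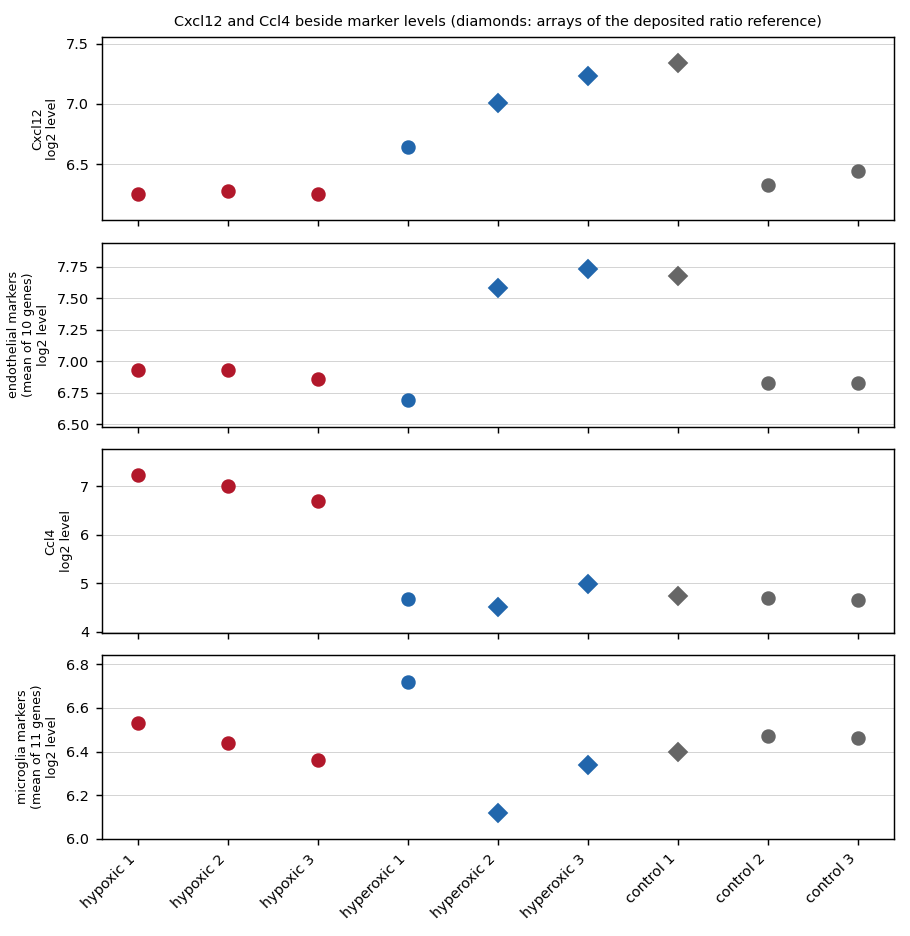
Levels of Cxcl12, endothelial markers, Ccl4 and microglia markers (log2, mean of 10 and 11 tested genes for the marker lists) on each array, with diamonds for the 3 arrays of the deposited ratio reference. Ccl4 separates the hypoxic P12.5 arrays from all others, while Cxcl12 and the endothelial markers are highest on the 3 diamonds.

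In each comparison with P12.5, 2 of the 5 tested members rose and 0 fell. Over all 19620 tested probes, 1.70% passed against hyperoxic P12 (1.13% higher, 0.566% lower), 1.89% against control P12 (1.29% higher, 0.601% lower) and 3.24% against all P12 arrays (1.79% higher, 1.45% lower). An unadjusted p under 0.05 was reached by 4, 3 and 4 of the tested members in the same order, and by 18.7%, 20.0% and 20.7% of all tested probes. Ccl3 and Ccl4 entered the test only through the P12.5 arrays, so the count of 2 describes these genes and is no measure of the family. Without overlap between the groups were 4 of 5 tested members in each of these comparisons, against 23.4%, 37.8% and 14.0% of all tested probes. Ccl3 and Ccl4 were among them, so this count and that of unadjusted p are no measure of the family either. Between hyperoxic and control P12, 0 of 5 tested members passed by limma, 0 had an unadjusted p under 0.05 and 0 were without overlap, against 0%, 9.55% and 14.1% of all tested probes.

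**Figure D3:**
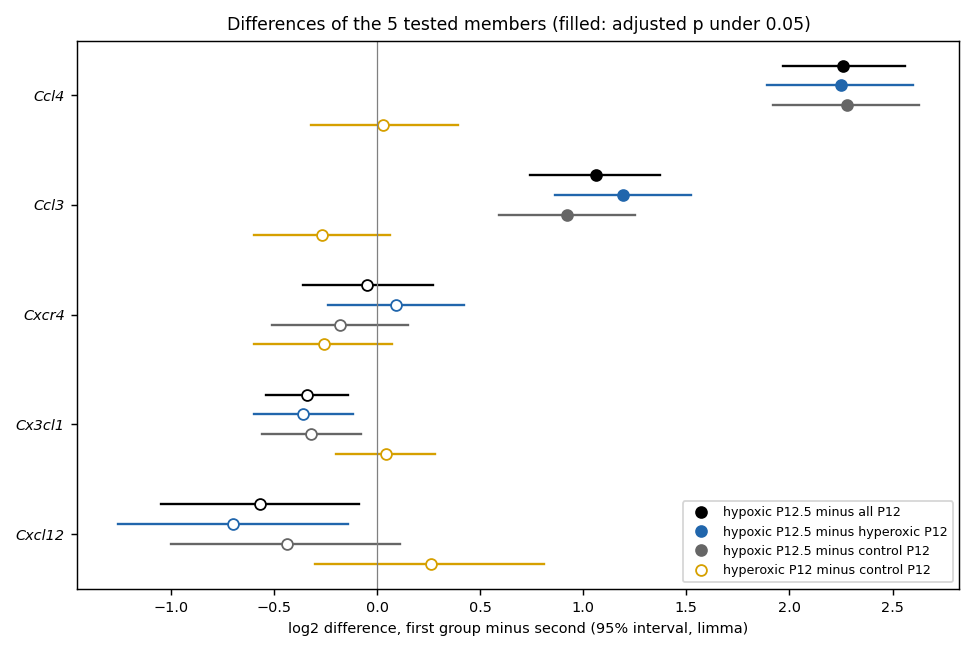
Log2 differences with 95% intervals (limma) of the 5 tested members in the 4 comparisons, filled where the adjusted p was under 0.05. Ccl4 lies near 2.26 and Ccl3 near 1.06 in the comparison with all P12 arrays, and the other members have open points throughout.

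Ccl2, Ccl5 and Cxcl10 stayed at background. Ccl2 attracts monocytes through Ccr2, Ccl5 attracts T cells and monocytes, and Cxcl10 is an interferon-induced attractant of T cells through Cxcr3. Their probes were detected on 0 of 9 arrays, and their lowest detection p-values were 0.345, 0.361 and 0.745. Levels ran from 4.50 to 4.67 for Ccl2, 4.38 to 4.65 for Ccl5 and 4.36 to 4.50 for Cxcl10. None was tested, and no fold is given between groups that were both below background. A change in them that stayed below the detection threshold could not be seen.

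Cxcl12, the ligand of Cxcr4 and a guide of endothelial, blood and neural cells, was detected on all 9 arrays. Its levels were 6.25, 6.28 and 6.25 on the hypoxic P12.5 arrays. They were 6.64, 7.01 and 7.23 on the hyperoxic P12 arrays and 7.34, 6.33 and 6.44 on the control P12 arrays. Every P12.5 array lay below every P12 array, but control 1 stood far above the other control arrays.

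The Cxcl12 log2 difference between P12.5 and all P12 arrays was -0.57 ± 0.22 (limma, adjusted p = 0.164) and did not pass. It was -0.70 ± 0.25 against hyperoxic P12 (adjusted p = 0.177) and -0.44 ± 0.25 against control P12 (adjusted p = 0.362). Without hyperoxic 1 the difference from hyperoxic P12 was -0.88 and passed (adjusted p = 0.0418), while it was -0.40 with median centring (adjusted p = 0.483) and -0.30 with the deposited ratios (adjusted p = 0.575). Between hyperoxic and control P12 the difference was 0.26 ± 0.25 (adjusted p = 0.723), with a 95% interval from -0.30 to 0.81.

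Cxcl12 split the P12 arrays by the deposited reference and not by the labels. The 3 P12 arrays outside the reference (hyperoxic 1, control 2 and control 3) had 6.33 to 6.64, and the 3 reference arrays had 7.01 to 7.34. The log2 difference, outside minus reference, was -0.72 ± 0.12 (limma, adjusted p = 0.0114), where 4.41% of all tested probes passed. P12.5 arrays were 0.93 ± 0.12 below the reference arrays (difference -0.93, adjusted p = 0.00141, 9.49% of probes passing), and differed by -0.21 ± 0.12 from those outside it (adjusted p = 0.305, 6.18% passing).

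Vessel markers, like Cxcl12, were higher on the reference arrays than on all others. The mean level of 10 tested endothelial genes, of 13 listed, was 6.86 to 6.93 at P12.5 and 6.69 to 6.83 on the P12 arrays outside the reference, against 7.58 to 7.73 on the reference arrays. For 6 pericyte and smooth muscle genes it was 5.86 to 5.94 at P12.5 and 5.54 to 5.92 outside the reference, against 6.39 to 6.47 on the reference arrays. Between P12.5 and the arrays outside the reference, endothelial levels were higher at P12.5, a difference that was not tested. Cxcl12 values were lower there but did not pass. Of the endothelial genes, 1 fell at P12.5 against hyperoxic P12, 1 against all P12 arrays and 0 against control P12, and 0 rose. The part of vessel markers in the Cxcl12 values was not tested. Of the other Cxcl12 probes, 1 was detected on 4 arrays, with levels from 4.79 to 5.46, and 1 on 0 arrays, with 4.40 to 4.57, and neither was tested.

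Cxcr4, which reads Cxcl12, showed no difference past the threshold. Its levels were 6.71, 6.94 and 7.14 on the hypoxic P12.5 arrays. They were 6.74, 6.93 and 6.87 on the hyperoxic P12 arrays and 7.25, 6.87 and 7.21 on the control P12 arrays. The groups overlapped in every comparison.

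The Cxcr4 log2 difference between P12.5 and all P12 arrays was -0.05 ± 0.14 (limma, adjusted p = 0.89), with a 95% interval from -0.36 to 0.27. Against hyperoxic P12 it was 0.09 ± 0.15 (interval -0.24 to 0.42, adjusted p = 0.771), against control P12 -0.18 ± 0.15 (adjusted p = 0.558), and between hyperoxic and control P12 -0.26 ± 0.15 (adjusted p = 0.576). The sign against all P12 arrays turned under 4 of 17 alternatives.

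Cx3cl1, the neuronal chemokine of the set, was detected on all 9 arrays. Its levels were 8.38, 8.48 and 8.41 on the hypoxic P12.5 arrays. They were 8.86, 8.69 and 8.81 on the hyperoxic P12 arrays and 8.67, 8.88 and 8.69 on the control P12 arrays. Every P12.5 array lay below every P12 array, and the labelled P12 groups overlapped.

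The Cx3cl1 log2 difference between P12.5 and all P12 arrays was -0.34 ± 0.09 (limma, adjusted p = 0.0707) and missed the threshold. It was -0.36 ± 0.11 against hyperoxic P12 (adjusted p = 0.118) and -0.32 ± 0.11 against control P12 (adjusted p = 0.14). Against all P12 arrays it passed with an offset of 50 (-0.31, adjusted p = 0.0407), without background correction (-0.28, adjusted p = 0.0319) and with array weights (-0.33, adjusted p = 0.0123). With median centring it was -0.04 (adjusted p = 0.896), so this difference depends on the normalization. Between hyperoxic and control P12 it was 0.04 ± 0.11 (adjusted p = 0.912).

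The receptors that read these ligands were mostly near background. Cx3cr1, the Cx3cl1 receptor of microglia, was detected on all 9 arrays. Its levels were 6.09, 6.05 and 5.94 on the hypoxic P12.5 arrays, 6.82, 6.22 and 6.22 on the hyperoxic P12 arrays and 6.54, 6.75 and 6.58 on the control P12 arrays. All P12.5 values were the lowest, and the log2 difference from all P12 arrays was -0.49 ± 0.15 (limma, adjusted p = 0.0927), which did not pass. It was -0.39 ± 0.17 against hyperoxic P12 (adjusted p = 0.243) and -0.59 ± 0.17 against control P12 (adjusted p = 0.0942). Over the alternatives the difference from all P12 arrays ran from -0.55 without hyperoxic 2, where it passed (adjusted p = 0.047), to -0.18 with the deposited ratios (adjusted p = 0.614). The Cx3cr1 difference passed under 2 of 17 alternatives, with a lowest adjusted p of 0.00559 (limma). Ccr1, a receptor of Ccl3 and Ccl5, was detected on 5 arrays, with levels from 4.90 to 5.43, and was not tested. Of the Ccr2 probes, 1 was detected on 0 arrays and 1 only on hyperoxic 1, at 6.29. Cxcr3 and the atypical Cxcl12 receptor Ackr3 were detected on no array.

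Among the other genes of the system, 31 further chemokine ligands had a probe, 17 of them were detected on no array and 8 were tested. None of the 8 rose, and 1 fell against hyperoxic P12, while 0 passed in the other comparisons. That gene was Ccl27a, a skin-homing chemokine, with 7.82, 7.95 and 7.91 on the hypoxic P12.5 arrays and 8.51, 8.28 and 8.42 on the hyperoxic P12 arrays. These values did not overlap, and the log2 difference was -0.51 ± 0.11 (limma, adjusted p = 0.0488); it was lost under 12 of 18 alternatives, among them leaving out any single hypoxic P12.5 array. With median centring it was -0.15 (adjusted p = 0.645) and with the deposited ratios -0.09 (adjusted p = 0.825), so it depends on the normalization. Against control P12 it was -0.29 ± 0.11 (adjusted p = 0.173) and against all P12 arrays -0.40 ± 0.11 (adjusted p = 0.0701), neither of which passed. Near-identical gene copies could share its probe. The median difference of the 8 ligands was 0.08 against hyperoxic P12, where that of all tested probes was 0.05.

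Some ligands had probes that did not move alike, and these were singled out after their values were seen. A Ccl12 probe, for a monocyte attractant of mouse close in sequence to Ccl2, had 5.78, 5.78 and 5.46 at P12.5, against 4.80, 4.68 and 4.68 in hyperoxic P12 and 4.51, 5.09 and 5.16 in control P12. This probe was detected on 3 of 3 P12.5 arrays, 0 of 3 hyperoxic P12 arrays and 2 of 3 control P12 arrays. It therefore entered the test only through the P12.5 arrays, where it was high, so its calls describe this probe alone. It rose by a log2 difference of 0.85 ± 0.15 against all P12 arrays (limma, adjusted p = 0.0193) and of 0.95 ± 0.17 against hyperoxic P12 (adjusted p = 0.034). As a lower bound, this probe was at least 1.27-fold higher than in hyperoxic P12. That bound includes hyperoxic 1, whose lowest detected log2 signal of 5.85 was above the probe's levels at P12.5. Against control P12 it differed by 0.75 (adjusted p = 0.0621). The call against hyperoxic P12 was lost under 11 of 18 alternatives (limma, adjusted p up to 0.213). The call against all P12 arrays was lost under 5 of 17 (adjusted p up to 0.191). For both calls, leaving out any single hypoxic P12.5 array was among these (adjusted p 0.0598 to 0.15). The more intense Ccl12 probe differed by 0.19 from all P12 arrays (adjusted p = 0.526). Cxcl14, a chemokine made in epithelia and brain, had a probe that rose by 0.69 ± 0.12 against control P12 (adjusted p = 0.0225), while its more intense probe differed by 0.02 (adjusted p = 0.949). Against all P12 arrays the Cxcl14 probe that rose differed by 0.53 ± 0.13 (adjusted p = 0.0516) and against hyperoxic P12 by 0.37 ± 0.12 (adjusted p = 0.13), and passed in neither. The Cxcl14 call was lost under 9 of 18 alternatives, among them leaving out any single control array, hypoxic 1 or hypoxic 2.

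Of 23 further receptor genes, 22 had a probe, 14 were detected on no array and 3 were tested, with 0 passing. Of 21 genes of receptor signalling and ligand processing, 13 were tested and 1 fell against all P12 arrays. This was Elmo1, which couples receptors to Rac during cell movement, with a log2 difference of -0.50 ± 0.11 (limma, adjusted p = 0.0377). Its levels were 9.31, 9.28 and 9.44 at P12.5 and 9.58 to 10.04 at P12, and the call was lost under 9 of 17 alternatives, among them leaving out any single hypoxic P12.5 array. With median centring it was -0.19 (adjusted p = 0.55). Against hyperoxic P12 Elmo1 differed by -0.51 ± 0.13 (adjusted p = 0.083) and against control P12 by -0.48 ± 0.13 (adjusted p = 0.0871). Of 23 inflammatory cytokine and NF-kB genes, 11 were detected on no array and 7 were tested, with 0 passing. Their median log2 difference from all P12 arrays was 0.23, against 0.02 over all tested probes. Of 19 interferon-stimulated genes, 5 were tested and 0 passed, with a median of -0.12.

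**Figure D4:**
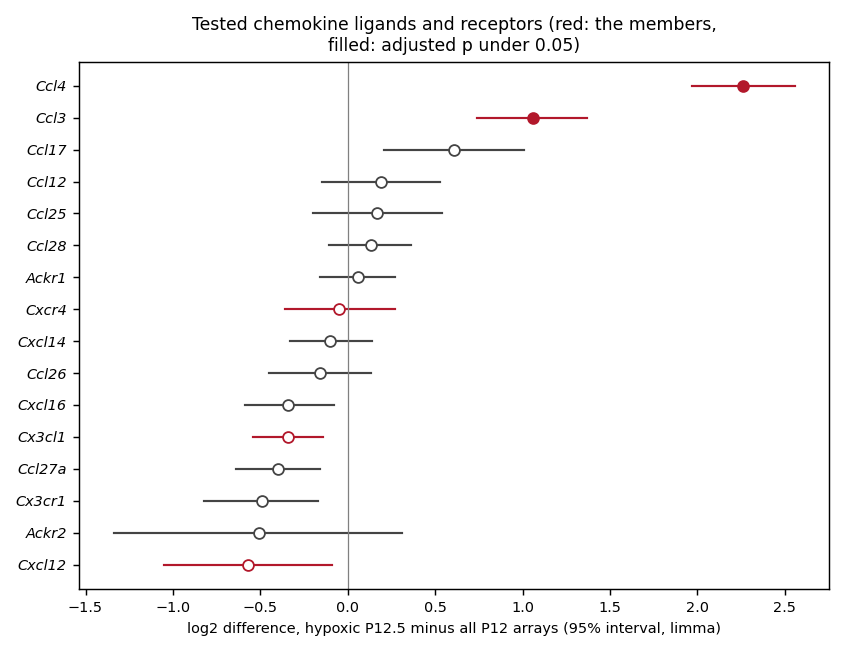
Log2 differences with 95% intervals (limma), hypoxic P12.5 minus all 6 P12 arrays, of the tested chemokine ligands and receptors by their most intense probe, with members in red and filled points for an adjusted p under 0.05. Ccl4 and Ccl3 are the filled points, at 2.26 and 1.06, and all other points are open.

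The genes whose pattern over the 9 arrays was most like that of the risen members were found by the root mean square of the log2 difference between centred levels, over 10521 genes. For Ccl3 they were Smtnl2 (0.129), Atg9b (0.141) and Arhgap31 (0.143). For Ccl4 they were Tnfrsf12a (0.266), H2-Q6 (0.324) and H2-Q8 (0.359). Tnfrsf12a, the receptor of the cytokine TWEAK, had a mean of 7.63 at P12.5 and 5.77 over all P12 arrays, a log2 difference of 1.86. It was picked for its likeness to Ccl4 on these same arrays, so no p-value is given for that difference. H2-Q6 and H2-Q8 are MHC class I genes of near-identical sequence, so their probes may read the same RNA. The likeness is a description over arrays that share their groups.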

How the data were processed

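Per the labels' protocols, RNA of each mouse's pooled retinas was biotin-labelled for Illumina arrays, and the design text calls the arrays biological replicates. The deposited raw table holds a linear intensity and a detection p-value per probe and array, and the deposited value table holds a linear ratio per probe and array. No source used here names the scanner software or the scaling that preceded the ratios. Each p-value column was used with the array whose intensities it follows without a rise (0% of steps, at least 0.322% for any other array), which moved the columns of 5 P12 arrays. The ratios served as an alternative and to find their reference arrays. Of 46640 probes, 27 were at 0 throughout and left out; of the rest 32781 had 1 gene symbol, 55 several and 13777 none.

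Intensities were processed with neqc (limma 3.58.1, R 4.3.3: normexp background, offset 16, quantile normalization, log2), and differences of dim probes are understated by the offset. Probes detected (p under 0.05) on all arrays of a group were tested, 19620 in all, with lmFit and eBayes, two-sided, with Benjamini-Hochberg adjustment over all of them at 0.05. The labelled comparisons used 1 fit of 3 groups, and P12.5 against all P12 a fit of 2 groups. Bounds on folds take, per array, the higher of the lowest detected signal and the probe's own. The number of arrays limits the precision. The most intense probe stands for a gene. The members, gene lists, naming rule and alternatives were chosen with earlier results of these data known. The rule names all members, other listed genes that pass, the members' receptors, and the 3 genes most like each member that passes. The fit was tested on simulated data. Some listed items are not reported here.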

Additional observations from a re-analysis of the deposited data

How the results depend on the processing

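The alternatives were no background correction, median centring, an offset of 50, no detection filter, the deposited ratios, the detection p-values as placed, array weights, the replicate number as a block, leaving out each array, and P12 arrays regrouped by the ratio reference. Between hyperoxic and control P12, members called numbered 2 with array weights (Ccl3 and Cxcl12) and 1 when regrouped (Cxcl12), against 0. Of P12.5 against hyperoxic P12, they numbered 1 with the deposited ratios and 4 with array weights, against 2, and 1 to 3 on leaving out single arrays. Against control P12 they numbered 1 without background correction, with median centring, with the deposited ratios or with the replicate block, 3 with array weights or when regrouped, and 1 to 2 on leaving out arrays. Against all P12 arrays they numbered 1 with the deposited ratios and 3 without background correction, with an offset of 50 or with array weights. Signs turned between hyperoxic and control P12 for Ccl3 (0.41) and Cxcl12 (-0.72) when regrouped, for Ccl4 (-0.10 without hyperoxic 3, -0.07 regrouped) and for Cx3cl1 (-0.06 with median centring, -0.21 with ratios). They turned for Cxcr4 against hyperoxic P12 (-0.02 without hypoxic 3, -0.01 regrouped), against control P12 (0.05 with median centring) and against all P12 arrays (0.23 with median centring, 0.11 with ratios, 0.01 without control 1, 0.06 without hypoxic 1), and for Cx3cl1 against hyperoxic P12 (0.04 with ratios). Median centring moved the median of all probes to -0.12, 0.31, 0.18 and 0.24 in the 4 comparisons, and the ratios to -0.15, 0.20, 0.05 and 0.13. Causes were not tested. Probes called, in the same order, were 0, 333, 371 and 636; they were 501, 1943, 2996 and 1728 without hyperoxic 1, and over all alternatives 0 to 2680, 21 to 5289, 14 to 4061 and 33 to 4001. Deviations of same-numbered arrays correlated at -0.34 to 0.11, with 1 of 9 pairs over 0.1. Those of arrays with different numbers correlated at -0.13 to 0.31, with 4 of 18 pairs over 0.1. Because the labels within P12 were in doubt, this check cannot settle whether the numbers pair the samples. The replicate block gave 0, 127, 42 and 161 called probes and ended, of the members' calls, that of Ccl3 against control P12 (0.92, adjusted p = 0.0777). A next probe per member could not be run, since no member had several tested probes. Close gene copies may share the Ccl3, Ccl4 and Ccl12 probes, whose sequences were not used here.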
